A study of Nannochloropsis oceanica with 8 samples.

Results

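The outermost peaks are the ChIP-seq peaks nearest to the ends of the chromosomes of *Nannochloropsis oceanica*. On each of the 30 chromosomes the 5 peaks with the lowest start (left end) and the 5 with the highest end coordinate (right end) were taken by position alone, which gave 300 of 6185 peaks, 150 on each side. The other 5885 peaks of the same chromosomes are called inner peaks. The alga is a single-celled, oil-storing species of the sea, and strain IMET1 was used. Low-CO2 cultures were aerated with 0.04% CO2 and high-CO2 cultures, the controls, stayed at 5% CO2, and cells of both were taken at 24 h. All cultures had first received 5% CO2 under continuous light. One antibody was against H3K9me2 (dimethylated lysine 9 of histone H3) and the other against Kbu, by which lysine butyrylation is usually meant. Each mark had 2 libraries at low CO2 and 2 at high CO2. The labels describe 3 cultures per CO2 level without saying which culture each library came from. The p-values therefore measure the spread among these libraries, and that spread may be technical.

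Linear chromosomes end in telomeres, short repeats that protect the DNA end. In many eukaryotes the stretch next to them, the subtelomere, is rich in repeats and poor in expressed genes, and it is often packed in silent chromatin. H3K9me2 is a mark of such silent chromatin in plants, animals and fission yeast. Lysine butyrylation is a short-chain acylation related to acetylation, and on histones it has been found at active genes in mouse and rice. The question here was how both marks lie at the chromosome ends at each CO2 level, and whether the ends differ from the inner peaks.

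The same 6185 peaks were scored in all 8 libraries. Levels are the pileup of ChIP reads divided by the lowest control value of that library, written as times the genome background. That this lowest value stands for the genome background is an assumption. It was 9.90 to 11.7 in 6 libraries and 23.4 and 23.1 in the high-CO2 Kbu libraries, so Kbu levels can be set against each other within a CO2 level more safely than across CO2 levels. Within a library the pileup values are whole multiples of a step, and 1 step was taken as 1 read, which is an assumption. Such a number is a depth of stacked reads and need not be the count of all reads in the peak. At the median outermost peak it was 70 and 39 for H3K9me2 at low CO2 and 52 and 29 at high CO2. For Kbu it was 157 and 96 at low CO2 and 792 and 566 at high CO2. On this assumption counting error alone reaches 18.6% of an H3K9me2 level in the shallowest library and 10.2% of a Kbu level. The control background also differed between the CO2 levels: its median over the outermost peaks stood at 3.37 times its lowest value at low CO2 and at 1.26 times at high CO2, in the H3K9me2 columns. Ratios to control carry this difference, and for that reason the pileup without control leads below. Over the control at the same peak, the median H3K9me2 pileup of outermost peaks was 0.48 at low CO2 and 1.08 at high CO2. Inner peaks had 0.45 and 1.11. For Kbu the outermost peaks had 0.73 and 2.71. A low-CO2 level above the genome background therefore need not lie above the control at that peak.

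Most chromosomes had their first peak close to coordinate 1. The endmost left peak began between 195 and 43378 bp, with a median of 2464 bp, and on 14 chromosomes it began before 1000 bp. The lengths of the chromosomes are not given in the files, so the distance of right-end peaks from the physical end is unknown. The 5 left peaks spanned 10171 to 126558 bp (median 22516.5 bp) and the 5 right peaks 12970 to 111142 bp (median 25496 bp). Outermost peaks had a median width of 937.5 bp and inner peaks 1034 bp. The gap from a peak to its neighbour had a median of 3744 bp among the outermost peaks and 3096 bp among the inner ones. The 2 longest peak-free stretches lying between peaks anywhere in the set were at chromosome ends. One of 99929 bp followed peak4396, the endmost left peak of chromosome 30 (707 to 1324), and one of 99688 bp lay between peak6184 (chromosome 9, 1188806 to 1189541) and the endmost right peak of that chromosome.

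Taken as a whole, the outermost peaks carried H3K9me2 at nearly the level of the inner peaks. The median level was 1.60 ± 0.121 times the genome background at low CO2 and 1.38 ± 0.0874 at high CO2 for outermost peaks, and 1.57 ± 0.106 and 1.39 ± 0.0694 for inner peaks (mean ± SD of 2 libraries each). Left ends had 1.56 at low CO2 and 1.37 at high CO2, and right ends 1.62 and 1.38. The Kbu medians were lower at the ends. The median level was 2.39 ± 0.0166 at low CO2 and 3.58 ± 0.0353 at high CO2 for outermost peaks, and 2.59 ± 0.0659 and 3.71 ± 0.00034 for inner peaks (mean ± SD of 2 libraries each). Left ends had 2.41 and 3.52, and right ends 2.35 and 3.67.

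**Figure D1:**
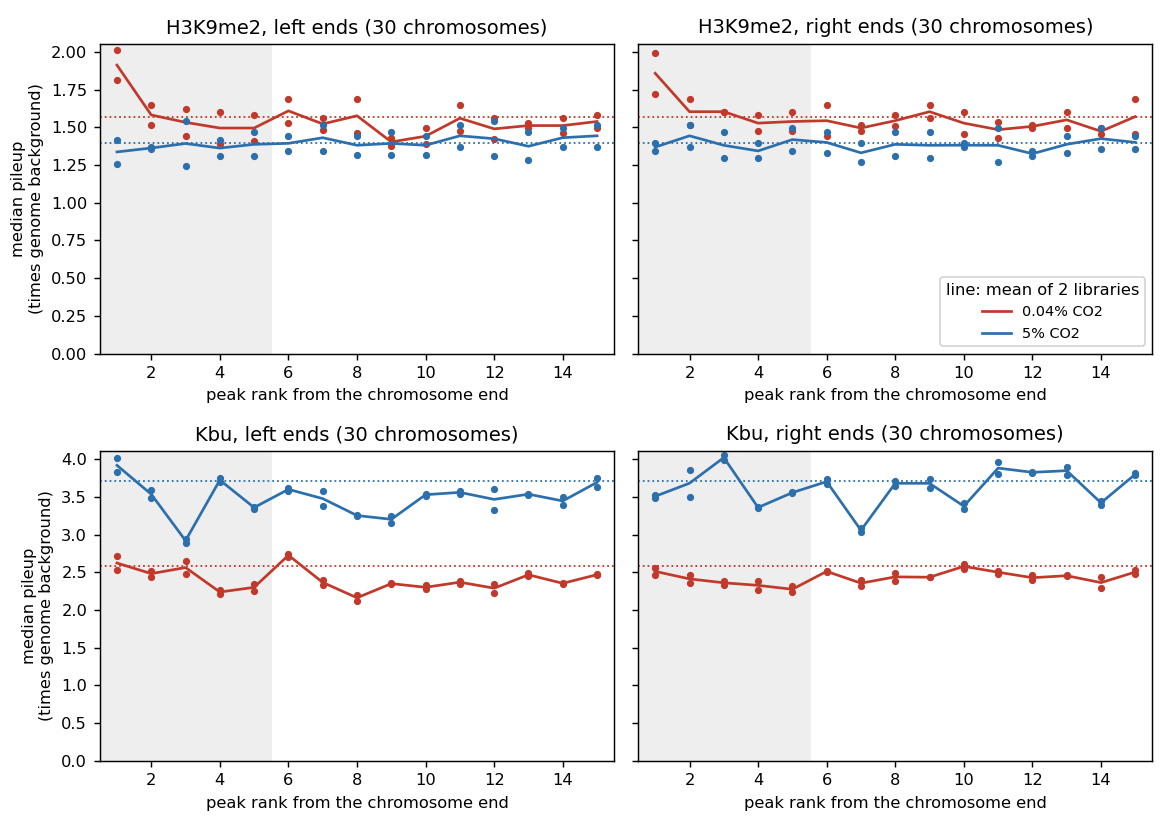
Median pileup in times the genome background (vertical axis) against the rank of a peak from the chromosome end (horizontal axis, 1 is the endmost peak), left and right ends apart. Points are libraries (medians over 30 chromosomes), lines are means of 2 libraries, the grey area holds the outermost peaks and dotted lines are inner medians; at low CO2 H3K9me2 stands at 1.91 (left) and 1.86 (right) at rank 1.

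The one position that stood out for H3K9me2 was the endmost peak, the first or last of a chromosome (60 peaks). It was singled out after its values had been seen, so its levels are a description with no test. At low CO2 the median of the endmost peaks was 1.74 and 1.99 times the genome background in the 2 libraries, against 1.29 and 1.39 at high CO2. The inner peaks had 1.50 and 1.65 at low CO2 and 1.35 and 1.44 at high CO2. The endmost peaks thus lay above the inner peaks in both low-CO2 libraries and below them in both high-CO2 libraries. Within chromosomes the endmost peaks were 0.23 and 0.22 above the inner median on the log2 scale at low CO2, and -0.07 and -0.07 from it at high CO2 (median over 30 chromosomes). The difference was positive on 25 and 23 of the 30 chromosomes at low CO2, and on 11 and 9 at high CO2. The peaks of rank 2 to 5 had medians of 1.55 at low CO2 and 1.38 at high CO2 (means of 2 libraries). At rank 5, the last inside the rule, and rank 6, the first outside it, the medians were 1.51 and 1.57 at low CO2. At high CO2 they were 1.41 and 1.39 (both sides together, means of 2 libraries).

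H3K9me2 rarely reached 2 times the genome background in both libraries of a CO2 level. This line is set on the lowest control value, not on the control at the same peak. At low CO2 it did so at 28 of the 300 outermost peaks (9.33%), where the share over all peaks was 5.13%. Of these 28 peaks, 12 lay on left and 16 on right ends. The endmost peaks made up 14 of them, 9 left and 5 right, which is 23.3% of the 60 endmost peaks, and 5.83% of the 240 peaks of rank 2 to 5 reached the level. At high CO2 0 of the 300 outermost peaks reached it, against 10 inner peaks (0.162% of all peaks). The 14 endmost peaks were the left ends of chromosomes 3, 9, 15, 17, 20, 22, 24, 28 and 30 and the right ends of chromosomes 1, 10, 14, 18 and 29. The count of endmost peaks depends on where the line is drawn: it was 29 at 1.7 times (990 of all peaks) and 3 at 2.5 times (106 of all peaks). It was also 28 in low-CO2 replicate 2 alone (13.2% of all peaks) and 14 in low-CO2 replicate 1 alone (6.45% of all peaks). With the 5th percentile of the control as background, 0 endmost peaks and 25 of all 6185 peaks reached 2 times.

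**Figure D2:**
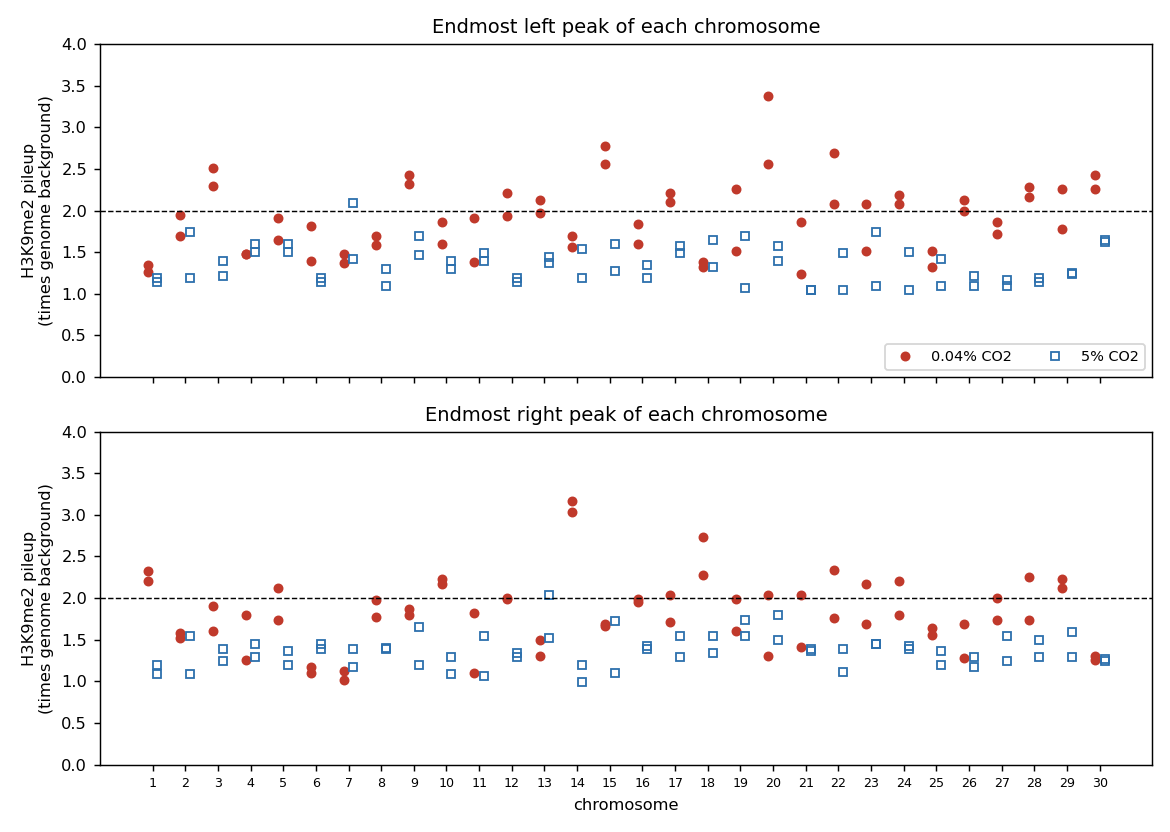
H3K9me2 pileup in times the genome background (vertical axis) at the endmost left peak (upper panel) and endmost right peak (lower panel) of each of the 30 chromosomes (horizontal axis). Filled circles are the 2 low-CO2 libraries, open squares the 2 high-CO2 libraries and the dashed line is 2 times; both low-CO2 libraries are above both high-CO2 libraries at 41 of 60 peaks.

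At the endmost peaks both low-CO2 libraries lay above both high-CO2 libraries at 41 of 60 peaks (68.3%) and below them at 4 (6.67%), where 45.9% and 3.78% of all peaks did so. By side these were 22 left and 19 right peaks above. Among peaks of rank 2 to 5 the shares were 43.3% and 5.42%, close to those of all peaks. Left ends whose first peak began before 1000 bp held the higher levels, a cut also chosen after the values were seen. The 14 such peaks had medians of 2.15 and 2.21 times the genome background at low CO2 and 1.35 and 1.39 at high CO2, and 9 of them reached 2 times in both low-CO2 libraries. The 16 first peaks that began at 2239 bp or later had 1.52 and 1.71 at low CO2 and 1.19 and 1.47 at high CO2, and 0 of them reached it. Kbu was higher in the first set too, at 4.01 and 4.37 at low CO2 and 4.34 and 4.24 at high CO2, than in the second, at 2.21 and 2.05 at low CO2 and 3.39 and 3.504 at high CO2. Relative to all peaks, the Kbu pileup rose at 10 of the 14 peaks and fell at 1. Of the 16 it rose at 2 and fell at 4. Over all peaks 21.8% rose and 25.2% fell. The low-CO2 control moved with this split as well, at 4.15 times its lowest value in the first set and 3.26 times in the second (H3K9me2 low-CO2 replicate 1). Its part in the result was not tested.

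The lowest starts in the set belonged to such peaks. Peak3836 (chromosome 28, 195 to 1362) had H3K9me2 levels of 2.28 and 2.17 at low CO2 against 1.14 and 1.19 at high CO2, and its Kbu levels were 4.90 and 5.12 against 6.89 and 7.18. The H3K9me2 pileup there rose by 0.73 on the log2 scale relative to all peaks (SE 0.16, limma adjusted p = 0.000281), and did not pass without low-CO2 replicate 1 (0.63). Peak5926 (chromosome 9, 270 to 1179) had 2.32 and 2.43 at low CO2 and 1.47 and 1.69 at high CO2, but its H3K9me2 change of 0.39 did not pass (limma adjusted p = 0.142). Its Kbu levels were 4.58 and 4.99 at low CO2 and 3.41 and 3.48 at high CO2. Peak1878 (chromosome 17, 270 to 1198) began at the same coordinate, and it is named for that tie after its values were seen. It had H3K9me2 of 2.10 and 2.21 at low CO2 and 1.57 and 1.49 at high CO2, a change of 0.29 that did not pass (limma adjusted p = 0.342), and Kbu of 5.10 and 5.02 at low CO2 and 6.57 and 6.63 at high CO2. Peak2749, the endmost left peak of chromosome 20 (403 to 1421), had the highest H3K9me2 level of all endmost left peaks, 2.56 and 3.38 at low CO2 against 1.57 and 1.39 at high CO2. Its pileup rose by 0.79 (SE 0.15, limma adjusted p = 3.02e-05). The low-CO2 control at this peak stood higher than its H3K9me2 level, at 6.26 times its lowest value.

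Low and high CO2 were compared peak by peak on the log2 pileup, with each library set to the same mean over all 6185 peaks, so that every change is relative to that mean. On the scale of genome background the changes of all peaks stood higher by 0.20 for H3K9me2 and lower by 0.50 for Kbu (log2, medians). The H3K9me2 pileup rose at low CO2 at 25 outermost peaks (8.33%) and fell at 7 (2.33%), while the test left 268 uncalled (limma, adjusted p under 0.05, 2 libraries per group). Over all peaks 4.01% rose and 1.03% fell. By side, 11 left and 14 right peaks rose and 4 left and 3 right peaks fell. The endmost peaks held 14 of the 25 gains (23.3% of 60) and the 240 peaks of rank 2 to 5 the other 11 (4.58%). Leaving out 1 library left fewer gains at the ends and over all peaks: 15 without low-CO2 replicate 1 and 16 without replicate 2, and 17 and 15 without high-CO2 replicates 1 and 2, where 2.30% to 2.57% of all peaks rose. At the endmost peaks these counts were 8, 9, 9 and 8. Losses numbered 4 and 2 without low-CO2 replicates 1 and 2, and 5 and 0 without high-CO2 replicates 1 and 2, the last with 19 at an unadjusted p under 0.05 (limma). Over all peaks these losses were 0.728%, 0.259%, 1.08% and 0.113%. With library medians set equal, 25 outermost peaks rose and 0 fell (28 at an unadjusted p under 0.05, limma), where 3.85% and 0.356% of all peaks did.

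The largest H3K9me2 gain was peak1476, the endmost right peak of chromosome 14 (1000591 to 1000991). Its level was 3.04 and 3.16 times the genome background at low CO2 and 1.19 and 1.00 at high CO2, and its pileup rose by 1.31 (SE 0.15, limma adjusted p = 1.72e-13). The groups were far apart, and the high-CO2 libraries lay at background. Peak3726 (chromosome 26, 621637 to 623307, the third peak from the right) had 3.12 and 2.99 at low CO2 against 1.27 and 1.24 at high CO2, a rise of 1.08 (limma adjusted p = 1.14e-09). The next was peak2376 (chromosome 2, 15875 to 16477, the fourth from the left), with a mean of 3.45 ± 0.218 at low CO2 against 1.54 ± 0.494 at high CO2 (SD, n = 2 each) and a rise of 1.00 (SE 0.15, limma adjusted p = 3.63e-08). Peak1675 (chromosome 15, 980327 to 982115, the third from the right) rose by 0.99 and had the highest H3K9me2 level of all outermost peaks, 3.12 and 3.90 at low CO2 against 1.42 and 1.64 at high CO2. A second peak of the chromosome 14 right end, peak1472 (982163 to 982842, the fifth from the right), had 2.99 and 2.69 against 1.22 and 1.59 and rose by 0.82. In the ratio to control all of these rose as well, by 0.71 at peak3726 and 2.58 at peak1472, except peak2749, which did not pass there (0.35, limma adjusted p = 0.136). The low-CO2 control stood above the mean H3K9me2 level at peak3726 (6.03 against 3.06) and at peak1675 (3.98 against 3.51). It stood below that level at peak1476 (1.86), peak2376 (1.65) and peak1472 (1.14). These control values are times the lowest control value, as means of 2 libraries.

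H3K9me2 losses were smaller than the largest gains. The largest was at peak4061 (chromosome 3, 14402 to 15181, the fourth from the left), with 1.22 and 1.00 at low CO2 and 1.29 and 1.64 at high CO2, a fall of -0.61 (SE 0.18, limma adjusted p = 0.0222). Peak2213 (chromosome 19, 14825 to 15800) fell by 0.55, peak1273 (chromosome 13, 1044363 to 1045142) by 0.54 and peak4472 (chromosome 4, 10369 to 10940) by 0.53 (limma adjusted p = 0.0199 to 0.0433). The highest outermost H3K9me2 levels at high CO2 were at peak1272 (chromosome 13, 1037740 to 1038734), which neighbours peak1273, and at peak2206 (chromosome 18, 860423 to 861429). Peak1272 had 1.56 and 1.39 at low CO2 and 1.75 and 1.94 at high CO2 and fell by 0.53, and peak2206 had 1.84 and 1.65 at low CO2 and 1.55 and 2.04 at high CO2 and did not pass (-0.23). All 5 of the named losses missed the threshold without high-CO2 replicate 2. They also missed it over genome background, where 26 outermost peaks rose (8.67%, with 4.92% of all peaks) and 0 fell (1 at an unadjusted p under 0.05, limma). On that scale 0 of all 6185 peaks fell.

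The authors' deposited normalised value is a ratio of pileup to control, and with it many more H3K9me2 calls appear. The ratio rose at 100 outermost peaks (33.3%) and fell at 23 (7.67%), while 177 were uncalled, where 24.5% of all peaks rose and 12.1% fell (limma on log2 of the value plus 1, adjusted p under 0.05). It rose at 51 left and 49 right peaks and fell at 10 and 13. Without high-CO2 replicate 1 or 2 there were 59 and 59 gains (13.5% and 13.7% of all peaks) and 4 and 3 losses (0.954% and 1.26% of all peaks). The balance of gains and losses depended on how the libraries were scaled. With library totals set equal the ratio rose at 61 outermost peaks and fell at 67, where 14.2% of all peaks rose and 28.8% fell. With library medians set equal it rose at 46 and fell at 22, where 10.5% and 9.68% of all peaks did. Of the 100 gains 12 also rose in pileup, and 88 did not pass there. The control moved with these calls: its low-CO2 median was 2.04 times the lowest value where the ratio rose, 4.87 where it fell and 3.86 where neither passed. At high CO2 these medians were 1.20, 1.25 and 1.29. Its part in the ratio calls was not tested beyond the pileup counts given here.

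A smaller share of the outermost peaks than of all peaks reached 2 times the background in Kbu. In both libraries of a CO2 level, 2 times the genome background was reached by 185 of the 300 outermost peaks at low CO2 (61.7%) and by 247 at high CO2 (82.3%). Over all peaks these shares were 75.2% and 92.7%. The endmost peaks reached it at 37 of 60 at low CO2 and 40 of 60 at high CO2. Both low-CO2 libraries lay below both high-CO2 libraries at 249 outermost peaks (83%) and above them at 34 (11.3%), where 88.9% and 5.14% of all peaks did so. The upper quartile did not lie lower at the ends at low CO2: it was 3.09 and 3.18 for outermost peaks and 2.99 and 3.08 for inner peaks, with 3.80 and 3.95 for the endmost peaks. At high CO2 it was 4.40 and 4.37 for outermost, 4.80 and 4.86 for endmost and 4.41 and 4.43 for inner peaks. The levels spread widely, from 0.741 to 7.40 in low-CO2 replicate 1 and from 0.509 to 10.3 in high-CO2 replicate 1. Both extremes of that high-CO2 library were endmost peaks.

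Within chromosomes the outermost Kbu level lay below the inner level in all 4 libraries. The difference was -0.09 and -0.16 at low CO2 and -0.04 and -0.05 at high CO2 (log2, median over 30 chromosomes), and it was positive on 9 and 9 chromosomes at low CO2 and on 14 and 12 at high CO2. For H3K9me2 it was 0.01 and 0.03 at low CO2 and -0.01 and 0.00 at high CO2. Every H3K9me2 library lay above every Kbu library, and the mean difference between the marks was 0.09 (exact two-sided permutation test, 4 libraries against 4, p = 0.0286, which is the smallest this design can give, and 0.0571 after adjustment over 4 tests). At left ends alone it was 0.06 (exact p = 0.0286, adjusted 0.0571) and at right ends 0.06 (exact p = 0.257). Against the control the marks differed by 0.10 with overlap between libraries (exact p = 0.114). The change of this difference between low and high CO2 was 0.03 for H3K9me2 and -0.08 for Kbu. With 2 libraries against 2 the exact test cannot go below 0.333, the value of both (adjusted 0.533 over 8 tests). The Kbu difference between CO2 levels turned positive with means in place of medians (0.04), against the control (0.09) and on the deposited ratio (0.07).

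**Figure D3:**
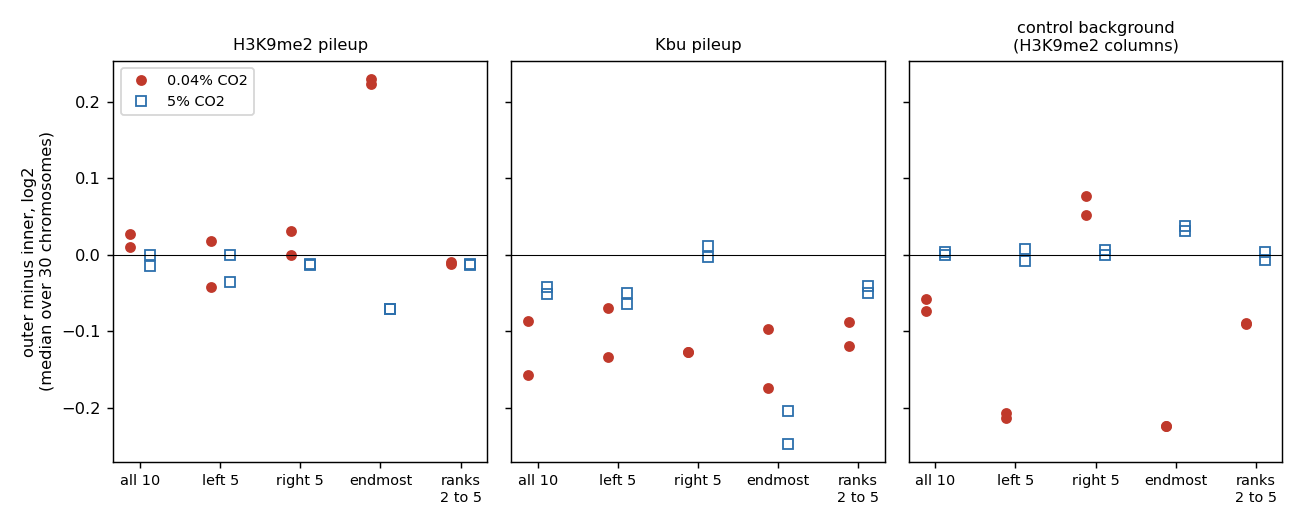
Outer minus inner level within chromosomes on the log2 scale (vertical axis, median over 30 chromosomes) for H3K9me2 pileup, Kbu pileup and the control background of the H3K9me2 columns. Filled circles are the 2 low-CO2 libraries and open squares the 2 high-CO2 libraries; for all 10 outermost peaks per chromosome Kbu lies between -0.16 and -0.04.

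Left and right ends were then set against each other. Left minus right was -0.04 for H3K9me2 at low CO2 and -0.03 at high CO2, and -0.06 and -0.11 for Kbu (means of 2 libraries). Neither change with CO2 passed, at -0.02 for H3K9me2 (exact p = 1) and 0.05 for Kbu (exact p = 0.667). At right ends Kbu was -0.13 and -0.13 from the inner level at low CO2 and 0.01 and 0.00 at high CO2, with no overlap but with the same smallest p of 0.333. The low-CO2 control was unlike between the sides, at -0.21 and -0.21 from inner on the left and 0.05 and 0.08 on the right, and at high CO2 it stood between -0.01 and 0.01. Its part in the side values was not tested.

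A few chromosomes accounted for the deepest Kbu deficit at their ends. Outer minus inner was -1.20 at low CO2 and -0.74 at high CO2 on chromosome 6, and -1.22 and -0.89 on chromosome 13 (log2, means of 2 libraries). Chromosome 18 had -0.68 and -0.59, chromosome 19 had -0.63 and -0.23, chromosome 10 had -0.47 and -0.48 and chromosome 30 had -0.27 and -0.48. In the other direction chromosome 24 had 0.24 and 0.15 and chromosome 29 had 0.19 and 0.25. Chromosome 23 had 0.12 at low CO2 and -0.61 at high CO2. These chromosomes were chosen after their values were seen.

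The highest Kbu among the outermost peaks was at single ends, and inner peaks reached higher still, up to 10.9 and 10.6 at low CO2 and 11.4 and 11.5 at high CO2. Peak4057, the endmost right peak of chromosome 29 (579848 to 580964), had the highest Kbu level of all outermost peaks at both CO2 levels, 7.40 and 6.49 at low CO2 and 10.3 and 10.1 at high CO2. Relative to all peaks its Kbu pileup did not pass (-0.06, limma adjusted p = 0.558), and over genome background it was lower at low CO2 by -0.56. The same peak was one of the 14 endmost peaks with H3K9me2 above 2 times, at 2.23 and 2.12 at low CO2 against 1.29 and 1.59 at high CO2. Peak581, the endmost right peak of chromosome 10 (1243019 to 1243980), had Kbu of 6.96 and 5.76 at low CO2 and 6.65 and 6.31 at high CO2. These levels overlapped, and relative to all peaks its Kbu pileup rose by 0.47 (limma adjusted p = 0.00221). Its neighbour by 4 peaks, peak577 (1228384 to 1228796), had the largest Kbu gain. Peak4475 (chromosome 4, 26648 to 27564) had 3.84 and 3.98 at low CO2 against 7.17 and 7.32 at high CO2, the second highest level there, and its pileup fell by 0.39 relative to all peaks (limma adjusted p = 0.000616).

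The Kbu pileup rose at low CO2 at 80 outermost peaks (26.7%) and fell at 94 (31.3%), while the test left 126 uncalled (limma, adjusted p under 0.05, 2 libraries per group). Over all peaks 21.8% rose and 25.2% fell. By side, 38 left and 42 right peaks rose and 48 and 46 fell. Endmost peaks rose more often than they fell, 26 (43.3%) against 10 (16.7%), and peaks of rank 2 to 5 fell more often, with 54 gains (22.5%) and 84 losses (35%). These directions are relative to all peaks. Over genome background 26 outermost peaks rose (8.67%, with 3.59% of all peaks) and 232 fell (77.3%, with 83.7% of all peaks), and of the endmost peaks 9 rose and 38 fell. Without high-CO2 replicate 1 or 2 the losses were 48 and 51 (13.4% and 13.6% of all peaks), and those of the endmost peaks 5 and 5.

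Of the 4 named Kbu gains 2 had Kbu below the genome background at high CO2. Peak577 had 2.16 and 2.24 times the genome background at low CO2 and 0.627 and 0.797 at high CO2, and its pileup rose by 2.14 (SE 0.14, limma adjusted p = 1.72e-06). Peak3214 (chromosome 23, 19248 to 19967, the fourth from the left) had 3.25 and 3.83 at low CO2 against 1.33 and 1.41 at high CO2, a rise of 1.87. Peak1064 (chromosome 12, 1164831 to 1165352, the second from the right) had 1.26 and 1.47 against 0.527 and 0.577, a rise of 1.80, and its low-CO2 control was at its lowest value. Peak814 (chromosome 11, 1152372 to 1153910, the fourth from the right) had 4.93 and 4.97 against 2.00 and 2.11, a rise of 1.77. In these 4 peaks the low-CO2 libraries were well apart from the high-CO2 libraries, and the rise held over genome background.

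The 4 named Kbu losses had Kbu near background at low CO2, against strong Kbu at high CO2. Peak2048 (chromosome 17, 861680 to 863613, the fifth from the right) had 1.19 and 0.944 at low CO2 against 3.70 and 3.97 at high CO2, and its pileup fell by 1.35 relative to all peaks (SE 0.13, limma adjusted p = 2.07e-05). Peak4056 (chromosome 29, 567303 to 568894) lies next to peak4057, the highest Kbu peak, and had 1.27 and 1.17 against 4.29 and 4.19, a fall of -1.30. Peak2215 (chromosome 19, 20469 to 21111, the fifth from the left) had 1.36 and 1.19 against 4.10 and 3.86, a fall of -1.14. Peak3948 (chromosome 29, 16509 to 17799, the fourth from the left) had 1.69 and 1.24 against 4.34 and 4.53, a fall of -1.11. In the Kbu columns the low-CO2 control of these 4 peaks was between 3.92 and 6.17.

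In the ratio to control, Kbu rose at 134 outermost peaks (44.7%) and fell at 87 (29%), while 79 were uncalled, where 40% of all peaks rose and 30.4% fell (limma, adjusted p under 0.05). Of the 134 gains 64 also rose in pileup, 59 did not pass and 11 fell. Of the 87 losses 54 fell in pileup and 1 rose. Without high-CO2 replicate 1 or 2 there were 43 and 36 losses (15.6% and 14.0% of all peaks). With library totals set equal 109 outermost peaks rose and 120 fell, where 31.3% and 40.5% of all peaks did. As for H3K9me2, the low-CO2 control was lower where the ratio rose (2.30 times its lowest value) than where it fell (4.65).

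**Figure D4:**
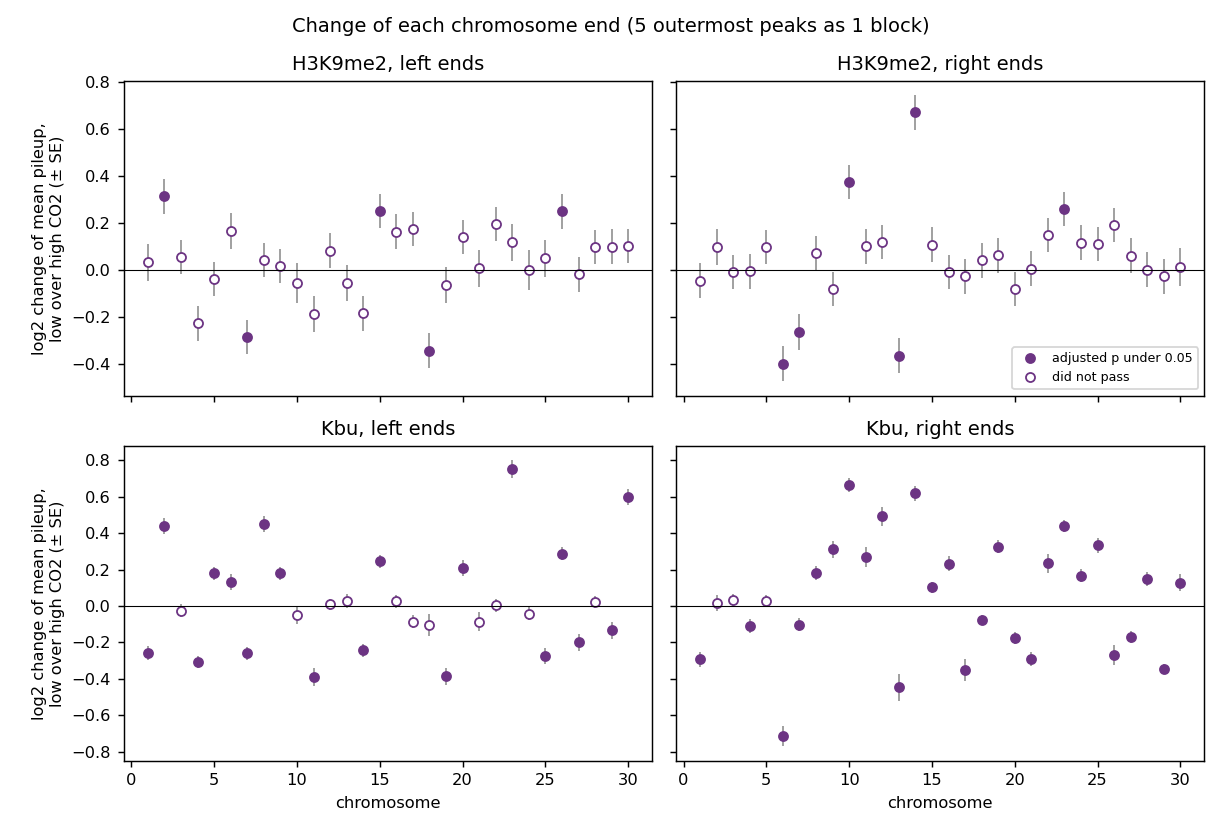
Log2 change of the mean pileup of the 5 outermost peaks of each end, low over high CO2, with its standard error (vertical axis), by chromosome (horizontal axis). Changes are relative to the mean over all blocks of 5 peaks. Filled points had a limma adjusted p under 0.05; for H3K9me2 the right end of chromosome 14 is highest (0.67) and for Kbu the left end of chromosome 23 (0.75) is highest and the right end of chromosome 6 lowest (-0.72).

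To see whether whole ends moved, the 5 peaks of an end were averaged and tested beside 1178 blocks of 5 consecutive inner peaks. H3K9me2 rose at 6 of the 60 ends (10%) and fell at 5 (8.33%), where 3.88% of all 1238 blocks rose and 1.78% fell (limma, adjusted p under 0.05). The ends that rose were 2 left, 15 left, 26 left, 10 right, 14 right and 23 right, and those that fell were 7 left, 18 left, 6 right, 7 right and 13 right, each named by chromosome and side. These few calls rest on all 4 libraries. Without low-CO2 replicates 1 and 2 there were 2 and 2 gains and 3 and 1 losses. Without high-CO2 replicate 1 there were 1 gain and 2 losses, and without replicate 2 there were 0 of both, with 7 and 7 at an unadjusted p under 0.05 (limma). Kbu rose at 25 ends (41.7%), 10 left and 15 right, and fell at 21 (35%), where 24.5% and 27.2% of all blocks did. With the median of the 5 peaks in place of their mean, Kbu rose at 10 ends and fell at 19. For this setting and for the fits without a library, the shares over all blocks were not counted. Whether the fewer calls are particular to the ends is therefore not known.

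The right end of chromosome 14 (982163 to 1000991) had the highest H3K9me2 of all ends, 2.33 and 2.33 times the genome background at low CO2 against 1.22 and 1.26 at high CO2. It rose by 0.67 (SE 0.07, limma adjusted p = 1.34e-10), and its Kbu rose by 0.62 relative to all peaks, at levels of 2.76 and 2.75 at low CO2 and 2.99 and 3.03 at high CO2. The left end of chromosome 2 (7434 to 18724) followed, with H3K9me2 of 2.09 and 2.20 at low CO2 and 1.29 and 1.62 at high CO2 and a rise of 0.32. The right end of chromosome 10 (1228384 to 1243980) rose in both marks relative to all blocks, by 0.38 in H3K9me2 and 0.66 in Kbu. Its H3K9me2 levels were 1.91 and 1.98 at low CO2 against 1.18 and 1.37 at high CO2. Its Kbu levels overlapped, at 3.75 and 3.56 at low CO2 and 3.63 and 3.60 at high CO2. The left end of chromosome 23 (14182 to 24353) had the largest Kbu rise, 0.75, with levels of 2.47 and 2.53 at low CO2 against 2.04 and 2.19 at high CO2, and its H3K9me2 did not pass (0.12). The right end of chromosome 22 (671310 to 703203) had the highest Kbu at low CO2, 3.54 and 4.06, against 4.23 and 4.04 at high CO2.

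The right end of chromosome 6 (1337731 to 1355509) was the lowest of all ends for both marks at low CO2. Its H3K9me2 was 1.24 and 1.33 at low CO2 against 1.42 and 1.53 at high CO2, a fall of -0.40 (SE 0.08, limma adjusted p = 0.000194). Its Kbu was 0.886 and 0.959 at low CO2, below the genome background, against 2.12 and 2.21 at high CO2, a fall of -0.72. The right end of chromosome 13 (1030487 to 1045142) also fell in both marks, by 0.36 in H3K9me2 and 0.45 in Kbu. The left end of chromosome 18 (3265 to 22339) fell by 0.34 in H3K9me2, and its Kbu of 0.986 and 1.02 at low CO2 against 1.49 and 1.56 at high CO2 did not pass (-0.11). The left end of chromosome 11 (2964 to 28266) fell by 0.39 in Kbu and did not pass in H3K9me2 (-0.19).

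**Figure D5:**
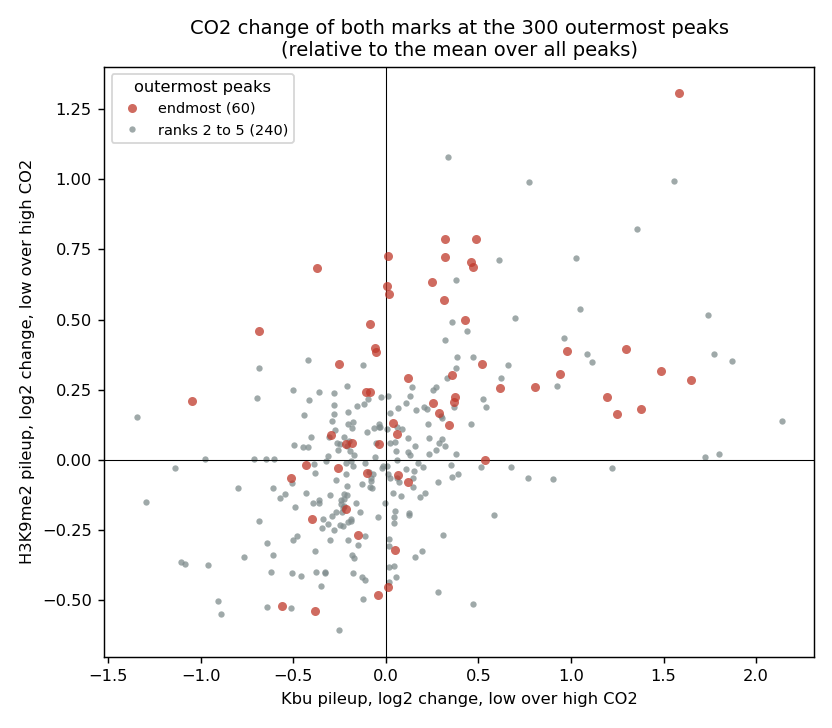
Log2 change of H3K9me2 pileup (vertical axis) against that of Kbu pileup (horizontal axis), low over high CO2 and relative to all peaks, at the 300 outermost peaks. Larger points are the 60 endmost peaks and smaller points ranks 2 to 5; 20 peaks passed upward in both marks and 5 downward in both.

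The marks were measured in separate libraries, and peaks that passed in both mostly moved the same way, at the ends and among inner peaks alike. Of the 25 outermost peaks whose H3K9me2 pileup rose, 20 also rose in Kbu, 1 fell in Kbu and 4 did not pass. The exception was peak4058, the endmost left peak of chromosome 3 (336 to 1071), with 0.68 in H3K9me2 and -0.37 in Kbu. Of the 7 peaks whose H3K9me2 fell, 5 fell in Kbu and 0 rose. Both marks rose at 7 left and 13 right peaks. Over genome background all 20 still rose in H3K9me2, while 7 rose, 4 fell and 9 were uncalled in Kbu (limma). Among inner peaks, 153 of the 223 whose H3K9me2 rose also rose in Kbu and 12 fell, and of the 57 whose H3K9me2 fell 19 fell in Kbu and 6 rose. Whether the ends differ from the inner peaks in this was not tested. The libraries of a CO2 level may share cultures, and peak1476 with 1.31 in H3K9me2 and 1.59 in Kbu is the point farthest to the upper right.

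The change of H3K9me2 was above that of Kbu at 27 outermost peaks (9%) and below it at 28 (9.33%), where 6.22% and 5.59% of all peaks passed (limma, interaction over 8 libraries, adjusted p under 0.05). Above were 11 left and 16 right peaks, and below 12 and 16. The widest difference was at peak577, where the H3K9me2 change of 0.14 lay 2.00 below the Kbu change (limma adjusted p = 1.29e-05). In the other direction it was 1.50 at peak2048, with 0.15 in H3K9me2 and -1.35 in Kbu (limma adjusted p = 9.17e-05). Without high-CO2 Kbu replicate 1 or 2, 4% and 4% of the outermost peaks passed above and 5% and 6% below. Without low-CO2 Kbu replicate 2 these shares were 4.33% and 5%, and without its replicate 1 they were 6% and 5.33%. The shares over all peaks were not counted for these fits.

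In the authors' deposited table, 41 outermost peaks (13.7%) had higher H3K9me2 at low CO2 at an unadjusted p under 0.05, where 7.73% of all peaks did. Lower H3K9me2 was found at 0 outermost peaks and at 0 of all 6185 peaks. By side the authors' deposited table has 19 left and 22 right peaks, and 15 of the 41 are endmost peaks. For Kbu the authors' deposited table has 58 outermost peaks (19.3%) higher at low CO2 and 9 (3%) lower, where 15.6% and 2.93% of all peaks were. An adjusted p is given there for 63 and 133 of the outermost peaks, and 28 and 44 of these pass 0.05 upward at low CO2. Over all peaks the authors' deposited table gives one for 1029 and 2468, of which 296 and 623 pass upward.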

How the data were processed

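Per the labels' protocols, ChIP-seq reads came from an Illumina HiSeq 2500. Per the submitters' processing notes the tools were BWA, MACS2, Picard, deepTools and Trim Galore. Their versions, the genome build and the peak calling steps are not given in the sources used. The authors deposited 3 values per library: the pileup signal, a control signal (lambda, per the file headers) and a normalised signal. In 100% of peaks the last is 10 times pileup over control, rounded down and divided by a factor of the library. The authors also deposited a log2 fold change (high over low CO2), a test statistic as a score, and a p-value. No column is a count, so no count test was run, and the total depth is unknown.

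The members, lists and named peaks were chosen with earlier results of these data known. The limma package (3.58.1, R 4.3.3), with trended empirical Bayes, was run over all 6185 peaks on log2 pileup centred per library, on the log2 normalised value after adding a pseudocount of 1, on blocks of 5 peaks and on the interaction of mark and CO2. No filter was used, so all 300 members were tested. All tests are two-sided, with p adjusted after Benjamini and Hochberg and called under 0.05. Small p-values rest on a spread shared over peaks (prior degrees of freedom 484 for H3K9me2 and 8.63 for Kbu pileup, infinite for the ratios). On simulated data, where 200 peaks were given a change of 1 log2 unit, the H3K9me2 pileup test found 99.5% with 16 false calls, the Kbu pileup test 100% with 1, the ratio tests 89.5% and 100%, and the interaction test 96.5% with 6. The simulated noise was drawn from a common pool over all peaks and libraries. These figures therefore do not cover smaller changes, or a spread that differs between peaks. Outer minus inner levels were compared with exact permutation tests over libraries. Named peaks and ends are those with the largest pileup changes among calls, the highest or lowest levels and the lowest starts. Positions are those of the deposited tables. Genes and sequences at the peaks were not analysed here. Alternatives were other scalings, pseudocounts, filters, thresholds and numbers of peaks per side, a replicate block and each library left out. Other steps ran in Python 3.11.15 with pandas 2.3.3, NumPy 2.4.6, Matplotlib 3.10.9 and SciPy 1.17.1.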

Additional observations from a re-analysis of the deposited data

Results flagged for a closer look

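The CO2 change of the 2 marks differed at single outermost peaks by a test of the difference itself (limma interaction over 8 libraries, adjusted p under 0.05). The H3K9me2 change lay above the Kbu change at 27 peaks (9%) and below it at 28 (9.33%). The same test called 6.22% of all peaks above and 5.59% below. Among the named peaks, the H3K9me2 change minus the Kbu change on the log2 pileup scale was 0.75 at peak3726, 1.50 at peak2048, 1.15 at peak4056, 1.11 at peak2215, 0.74 at peak3948 and 0.71 at peak3836. It was -2.00 at peak577, -1.52 at peak3214, -1.78 at peak1064, -1.39 at peak814 and -0.59 at peak5926. The first 4 of these negative values are Kbu gains picked for their size, as 4 of the positive ones are Kbu losses picked for their size, so the differences there are a description of those picks.

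The outer minus inner level of H3K9me2 lay above that of Kbu by 0.090 (log2) in all 4 against all 4 libraries, and at left ends by 0.064. Both reached the smallest exact p of this design, 0.0286, and neither passed after adjustment (0.0571 over 4 tests).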

How the results depend on the processing

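Values here are percents of the 300 outermost peaks (or 60 ends) unless named otherwise. With library medians set equal the H3K9me2 ratio rose at 15.3% (10.5% of all peaks). The H3K9me2 pileup fell at 0 (28 peaks at an unadjusted p under 0.05, limma), as at 0.356% of all peaks. With library totals set equal the ratio rose at 20.3% and fell at 22.3% (14.2% and 28.8% of all peaks). Leaving out the lowest 25% of peaks gave 2% H3K9me2 ratio losses and 1.33% H3K9me2 pileup losses (3.06% and 0.792% of all peaks). Kbu ratio gains came to 28.7% (29.4% of all peaks). Kbu pileup gains and losses came to 16.3% and 20% (14.4% and 18.5% of all peaks). Interaction calls were 5.67% above and 3% below, with the shares over all peaks not counted. A peak left out counts as uncalled in each of these shares. Over genome background the H3K9me2 pileup fell at 0 (1 at an unadjusted p), as at 0 of all 6185 peaks. On the same scale Kbu rose at 8.67% and fell at 77.3% (3.59% and 83.7% of all peaks). Kbu changes turned there to -0.17 at peak3726, -0.032 at peak581, -0.49 at peak3836 and -0.019 at peak2749. An adjusted p under 0.01 gave 3.33% H3K9me2 ratio losses, 0 H3K9me2 pileup losses and 18.7% Kbu pileup losses. A 1.5-fold minimum gave 3.33% H3K9me2 ratio losses, 0.333% H3K9me2 pileup losses, 26.3% and 9.33% Kbu ratio gains and losses, and 11.7% and 8% Kbu pileup gains and losses. For the stricter p and the 1.5-fold minimum the shares over all peaks were not counted. With 3 peaks per side the H3K9me2 ratio fell at 5% (12.1% of all peaks). With 10 the H3K9me2 pileup rose at 5.17% and fell at 1.33% (4.01% and 1.03% of all peaks). With the median of each end, H3K9me2 rose at 3.33% and fell at 5% of ends and Kbu rose at 16.7%, with the shares over all blocks not counted. The Kbu outer minus inner change with CO2 turned to 0.043 with means, 0.091 against control and 0.070 on the ratio. Left minus right turned to 0.00367 for H3K9me2 with 3 peaks per side, -0.022 for Kbu with means and -0.023 with 10 peaks per side, and -0.033 between the marks with means. The causes were not tested.

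Leaving out 1 library gave, for H3K9me2, ratio gains of 19.7% to 26.3% and losses of 1% to 8.33%, pileup gains of 5% to 5.67% and losses of 0 to 1.67%, and ends up at 0 to 3.33% and down at 0 to 5%. For Kbu it gave ratio losses of 12% to 32% and pileup losses of 16% to 38%. Interaction calls were 4% to 12% above and 5% to 9.33% below. The marks differed in outer minus inner level by 0.065 to 0.104 (exact p = 0.0286 to 0.0571), and left minus right changed with CO2 by -0.042 to 0.0081 for H3K9me2. Same-numbered libraries deviated together with correlations of 0.0423 (H3K9me2) and 0.111 (Kbu) over peaks, from 2 pairs per mark, so the numbers are not taken as pairs. A replicate block left H3K9me2 gains and losses at 5% of ends each, gave 9% H3K9me2 pileup gains (4.56% of all peaks), and kept the other counts within 1.5 times. The depth estimated from the pileup steps was lowest for H3K9me2, at 29 to 70 at a median outermost peak. For the comparisons themselves 138 values were kept, 60 percents moved by over 1.5 times, 4 differences lost their call and 8 turned sign. Kept means within 1.5 times for a percent or count, and the same sign and call for a difference. For single named peaks and the endmost counts, 419 values were kept and 23 counts moved by over 1.5 times. Among the named peaks 30 calls were lost, 4 were gained and 4 changes turned sign. A named peak's change that passed in neither fit counted as kept, whatever its sign. Sign changes without a call are therefore not among those 4. The alternatives for the endmost counts were added after the data were seen.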
